A study of Mus musculus with 16 samples.

Results

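The genes that bring fatty acids into a cell, store them as triglyceride and release them again were followed in macrophages sorted from mouse fat. They were Cd36, Lpl, Fabp4, Fabp5, Plin2, Dgat1, Dgat2, Pnpla2, Lipe and Mgll, 10 genes taken by symbol for their roles in these pathways. A probe set was assigned to a gene where that gene was its only symbol. This gave 24 probe sets for the 10 genes, of 34945 such probe sets for 18193 genes on the array. The series holds 16 arrays of perigonadal adipose tissue macrophages, 4 in each of 4 groups. Obese-FB and Obese-FBC macrophages came from obese C57BL/6J mice that are Lep ob/ob and so lack leptin, and Lean-FB and Lean-FBC macrophages from lean Lep +/+ mice of that strain. All mice came from the Jackson Laboratory and were 12 to 14 weeks old. FB cells were sorted as F4/80+ and CD11b+ but CD11c-, and FBC cells as positive for all 3 markers, which are encoded by Adgre1, Itgam and Itgax. The obesity compared here is that of mice lacking leptin in every cell from birth, and no diet-fed mice were analysed here.

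Macrophages in obese fat take up lipid and can hold it in droplets. Lipoprotein lipase (Lpl) frees fatty acids from lipoprotein triglyceride, CD36 takes up fatty acids and oxidised lipoproteins, and the binding proteins encoded by Fabp4 and Fabp5 carry fatty acids through the cytosol. The diacylglycerol acyltransferases Dgat1 and Dgat2 complete triglyceride synthesis, and perilipin 2 (Plin2) coats the droplet. Triglyceride is then cut in steps by adipose triglyceride lipase (Pnpla2), hormone-sensitive lipase (Lipe) and monoacylglycerol lipase (Mgll).

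Levels below are log2(intensity + 16) after quantile normalization. Summed intensities of marker lists were computed from these normalized levels, not from the deposited intensities. Changes are differences of group means on that scale with their SE, as limma gave them, and are smaller than the true change where signal is dim. A gene was tested through the probe set with its highest mean, among 11908 genes, and every probe set was also tested singly, among 21070. A result was called at an adjusted p under 0.05. All 7 macrophage markers were above the median of all 16 arrays, and Itgax was higher by 2.20 ± 0.26 in Obese-FBC over Obese-FB (adjusted p = 0.000111) and by 1.49 ± 0.26 in Lean-FBC over Lean-FB (adjusted p = 0.0213). Actin signal at the 3′ end relative to the 5′ end, a sign of RNA quality, gave a ratio of 45.0 on Obese-FB array 4, 53.3 on Lean-FB array 4 and 48.0 on Lean-FBC array 4, against 1.15 to 10.9 on the others. Calls of the 10 genes that change without these 3 arrays are given both ways. The summed intensity of 11 measured adipocyte markers of 13 listed was 298 to 405 in Obese-FB and 1813 to 5878 in Lean-FB, and 378 to 808 in Obese-FBC and 1308 to 6554 in Lean-FBC. In the lean groups these sums were mostly Car3. It read 10.12 to 12.55 there, where no other of these markers read above 7.90. Car3 was lowest on array 4 of each lean group, of high actin ratio. The adipocyte markers Adig, Slc2a4, Acvr1c and Aqp7 were above the array median on 0 arrays. Of 5 adipocyte markers tested, 0 were called higher and 3 lower with obesity in FB, and 1 higher and 1 lower in FBC. The summed intensity of 10 preadipocyte and fibroblast markers was 1994 to 2826 in Obese-FB and 2951 to 21116 in Lean-FB, and 2477 to 13216 in Obese-FBC and 1686 to 13536 in Lean-FBC. In bulk samples such as these, fewer cells of a type and less RNA per cell cannot be told apart.

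All 10 genes passed the filter on dim signal. In FB macrophages, obesity went with higher Dgat2 and Fabp5. That is 2 of 10 genes higher and 0 lower, where 1.81% of all genes tested were higher and 4.07% lower, and the median change was 0.23 over the 10 genes and 0.03 over all genes. In FBC macrophages, obesity went with higher Plin2 and Pnpla2. There 2 of 10 genes were higher and 0 lower, where 8.12% of all genes were higher and 5.95% lower, with median changes of 0.42 and 0.08. Lean-FBC differed from Lean-FB in Fabp5 alone, 1 gene higher and 0 lower, where 0.151% of all genes were higher and 0.042% lower, with median changes of 0.07 and 0.00. Obese-FBC differed from Obese-FB in 5 genes. Mgll, Pnpla2, Fabp5 and Plin2 were higher and Dgat2 was lower, where 5.11% of all genes were higher and 3.28% lower, with median changes of 0.43 and 0.08. The comparisons share groups, so their values for a gene are given side by side and not as independent results.

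**Figure D1:**
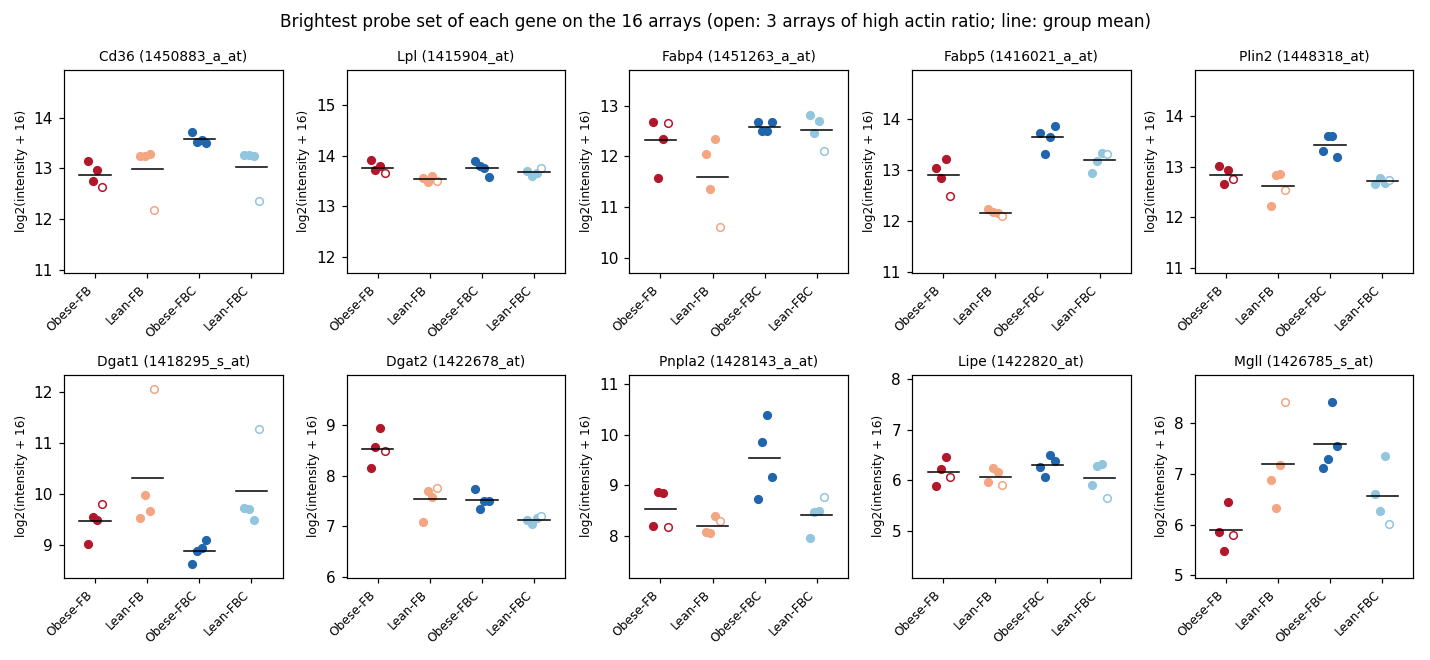
Level, as log2(intensity + 16), of the brightest probe set of each of the 10 genes on the 16 arrays, with groups on the horizontal axis, 1 point per array and a line at the mean of 4 arrays; open points are the 3 arrays of high actin ratio, and every panel spans 4 log2 units. Dgat2 stands higher in Obese-FB (8.15 to 8.93) than in any other group, and Plin2 higher in Obese-FBC (13.20 to 13.61) than in any other.

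Of the 24 probe sets, 22 were bright enough to be tested singly. Those left out were Lipe 1432180_at and Mgll 1431331_at, which were above the array median on 0 arrays. In Obese-FB over Lean-FB, 5 of the 22 were higher and 1 lower, where 1.41% of all probe sets were higher and 2.73% lower. In Obese-FBC over Lean-FBC, 8 were higher and 1 lower, against 6.38% and 4.86% of all probe sets. In Lean-FBC over Lean-FB, 2 were higher and 0 lower, against 0.0949% and 0.00949%. In Obese-FBC over Obese-FB, 6 were higher and 1 lower, against 3.74% and 2.52%. Probe sets of 1 gene share its RNA, so they are not separate genes, and differences between probe sets of 1 gene were not tested.

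**Figure D2:**
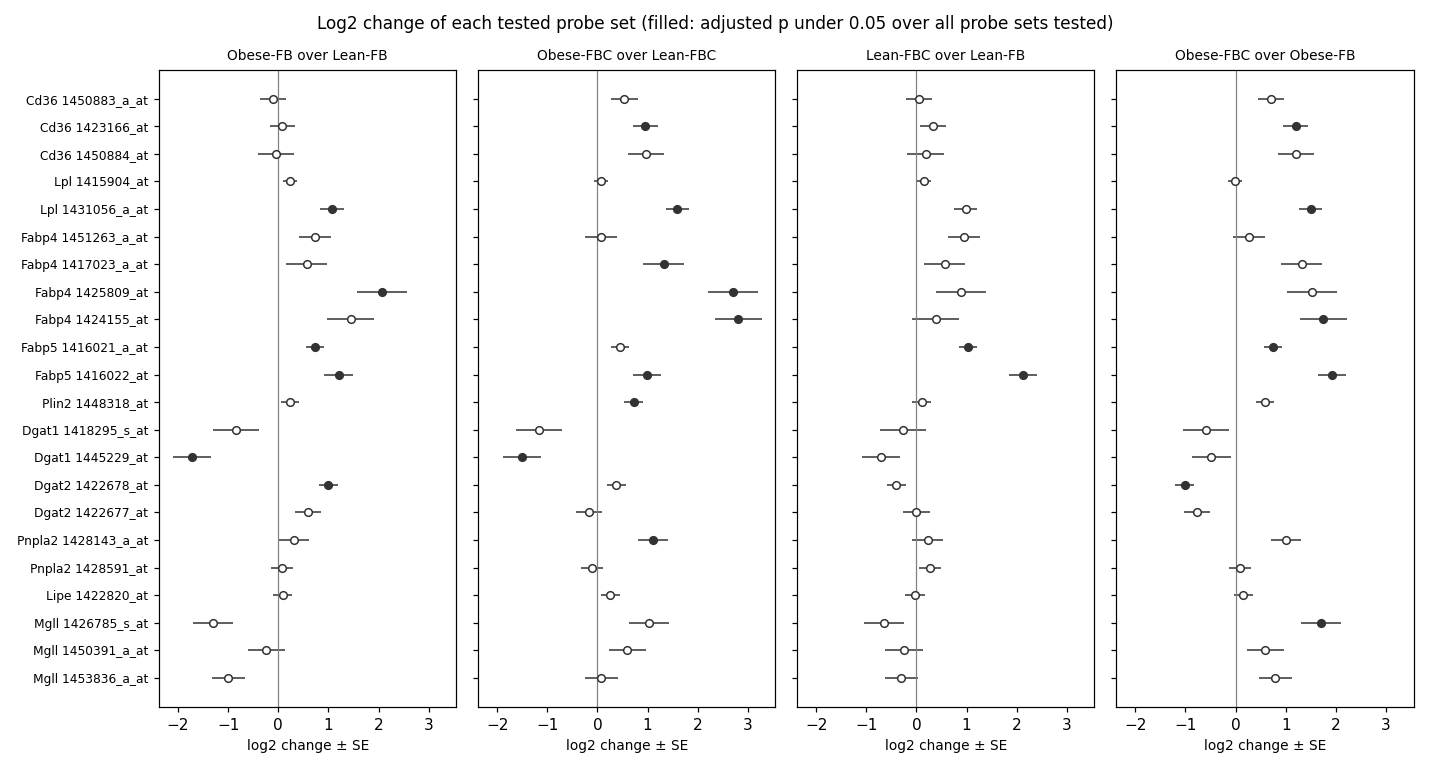
Log2 change of each of the 22 tested probe sets in 4 comparisons, with bars of 1 SE; filled points have an adjusted p under 0.05 over all 21070 probe sets tested. Filled points lie to the right in both obesity comparisons, except Dgat1 1445229_at (-1.73 in FB and -1.50 in FBC).

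The sequences before the start sites are shown for Plin2, Cd36 and Pnpla2, which each had a probe set called higher in Obese-FBC than in Lean-FBC and a promoter entry in RefSeq, build GRCm38.p6. Entries were found for 5 of the 10 genes, the others being Lipe and Mgll. The 250 bases before the start site are given 5′ to 3′ in the direction of the gene, with capitals for the matches found on either strand. The motifs searched were AGGTCA, the core site of nuclear receptors, its direct repeat AGGTCANAGGTCA, the E box CACGTG, the GC box GGGCGG, the CCAAT box and TATAAA. The windows are chr4:86670060-86670309 on the minus strand for Plin2, chr5:17835897-17836146 on the minus strand for Cd36 and chr7:141454938-141455187 on the plus strand for Pnpla2.
Plin2: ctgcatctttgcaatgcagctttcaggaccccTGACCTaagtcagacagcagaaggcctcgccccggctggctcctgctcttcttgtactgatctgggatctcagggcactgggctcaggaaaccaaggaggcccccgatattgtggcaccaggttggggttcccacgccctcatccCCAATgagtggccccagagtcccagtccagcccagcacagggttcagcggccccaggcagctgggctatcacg
Cd36: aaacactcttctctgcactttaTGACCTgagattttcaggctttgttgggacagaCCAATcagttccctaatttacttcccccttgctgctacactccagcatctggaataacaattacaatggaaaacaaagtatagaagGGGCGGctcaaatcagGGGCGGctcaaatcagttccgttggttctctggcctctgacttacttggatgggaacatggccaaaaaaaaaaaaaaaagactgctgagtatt
Pnpla2: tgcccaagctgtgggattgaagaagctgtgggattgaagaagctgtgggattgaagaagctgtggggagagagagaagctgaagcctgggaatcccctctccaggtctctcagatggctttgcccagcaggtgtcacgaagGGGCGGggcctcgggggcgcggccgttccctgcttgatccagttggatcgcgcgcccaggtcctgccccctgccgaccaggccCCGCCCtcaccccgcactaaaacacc
Plin2 had the core site 218 bases and a CCAAT box 73 bases before its start. Cd36 had the core site 228 bases, a CCAAT box 195 bases and GC boxes 109 and 93 bases before its start. Pnpla2 had GC boxes 109 and 26 bases before its start and no core site in this window. Of 32851 windows of the same length, 14% held the core site, 0.0335% the direct repeat, 6.02% the E box, 32.7% the GC box, 33.8% the CCAAT box and 12.4% TATAAA. The direct repeat was in none of the windows of these genes. A match describes letters only.

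Cd36, the fatty acid and scavenger receptor, did not pass the gene test in any comparison. Its probe set for that test was the 213th brightest of 45101 by mean signal. This probe set, 1450883_a_at, read 13.15, 12.75, 12.96 and 12.64 on the Obese-FB arrays, and 13.24, 13.25, 13.28 and 12.17 on the Lean-FB arrays. In FBC it read 13.72, 13.52, 13.56 and 13.49 in obese mice, and 13.26, 13.26, 13.24 and 12.36 in lean mice. After quantile normalization every Obese-FBC array stood above every Lean-FBC and every Obese-FB array, while the FB groups overlapped. In the deposited intensities Obese-FBC overlapped both. It ran from 8318.2 to 14648.2, Lean-FBC from 6178.8 to 11063.1 and Obese-FB from 6908.5 to 11179.8. The low lean values of Cd36 were those of Lean-FB array 4 and Lean-FBC array 4, both of high actin ratio. Both also differed in cell type markers, as given for Dgat1 below. The change was 0.54 ± 0.25 with obesity in FBC (adjusted p = 0.168) and 0.70 ± 0.25 in Obese-FBC over Obese-FB (adjusted p = 0.0991). Without the 3 arrays of high actin ratio the difference between Obese-FBC and Obese-FB was 0.62 ± 0.14 and was called (adjusted p = 0.0127), and the obesity change in FBC was 0.32 ± 0.14 (adjusted p = 0.124).

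A second Cd36 probe set, 1423166_at, was called in both of these comparisons. It read 13.27, 13.13, 12.45 and 13.20 in Obese-FBC and 12.62, 12.15, 11.66 and 11.83 in Lean-FBC, where obese array 3 overlapped lean array 1. The change was 0.95 ± 0.25 with obesity in FBC (adjusted p = 0.0241) and 1.20 ± 0.25 in Obese-FBC over Obese-FB (adjusted p = 0.0102). With arrays centred on their medians in place of quantile normalization, these were 0.66 (adjusted p = 0.118) and 0.89 (adjusted p = 0.0509). The FBC call of Cd36 was also lost without Obese-FBC array 1, 2 or 4 or Lean-FBC array 2, 3 or 4. In FB this probe set changed by 0.08 ± 0.25 with obesity (adjusted p = 0.907). The third Cd36 probe set, 1450884_at, changed by 0.97 ± 0.36 with obesity in FBC (adjusted p = 0.0922) and was not called in any comparison on all arrays. Without the 3 arrays of high actin ratio it was called in Obese-FBC over Obese-FB (1.12 ± 0.22, adjusted p = 0.00561).

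Lpl, the lipase that frees fatty acids outside the cell, was called higher with obesity in both populations by 1 of its 2 probe sets. The probe set that stood for the gene, 1415904_at, was the 23rd brightest of the 45101 on the array by mean signal, and read between 13.48 and 13.91 on all 16 arrays. It changed by 0.24 ± 0.13 with obesity in FB (adjusted p = 0.34) and by 0.08 ± 0.13 in FBC (adjusted p = 0.747), and was not called in any comparison. The FBC change was -0.38 with median centring and -0.34 with no normalization between arrays. The dimmer probe set 1431056_a_at read 11.92, 11.19, 11.33 and 10.87 on the Obese-FB arrays, and 10.71, 9.91, 10.28 and 10.13 on the Lean-FB arrays. In FBC it read 13.02, 12.88, 12.75 and 12.66 in obese mice, and 11.12, 11.20, 11.63 and 11.01 in lean mice. The groups did not overlap in either population. Tested singly, it was higher with obesity by 1.07 ± 0.23 in FB (adjusted p = 0.0141) and by 1.59 ± 0.23 in FBC (adjusted p = 0.000312). It was also higher by 1.50 ± 0.23 in Obese-FBC over Obese-FB (adjusted p = 0.000985), and differed by 0.98 ± 0.23 in Lean-FBC over Lean-FB (adjusted p = 0.143). The FBC and the obese calls held in all 23 other settings tried on probe sets. The FB call was lost in 1, without Lean-FB array 2 (adjusted p = 0.0638). The part that signal near the top of the range plays in the small change of the bright probe set was not tested.

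Fabp4, the fatty acid carrier that adipocytes also make in large amounts, was called through its dimmer probe sets only. Its probe set for the gene test, 1451263_a_at, read 12.68, 11.58, 12.34 and 12.66 in Obese-FB and 12.04, 11.36, 12.34 and 10.60 in Lean-FB. It read 12.67, 12.50, 12.50 and 12.68 in Obese-FBC and 12.82, 12.47, 12.69 and 12.10 in Lean-FBC. The groups overlapped in both populations, and the changes were 0.73 ± 0.32 in FB (adjusted p = 0.205) and 0.07 ± 0.32 in FBC (adjusted p = 0.917). The FBC change turned to -0.07 without the 3 arrays of high actin ratio and to -0.21 with median centring.

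Each of the other 3 Fabp4 probe sets was called higher with obesity in FBC. Probe set 1425809_at read 10.88, 9.11, 9.48 and 9.09 in Obese-FBC and 7.41, 6.81, 7.18 and 6.36 in Lean-FBC, a change of 2.70 ± 0.50 (adjusted p = 0.00239). Probe set 1424155_at read 9.88, 8.37, 8.64 and 8.39 in Obese-FBC and 6.29, 5.91, 6.50 and 5.36 in Lean-FBC, a change of 2.81 ± 0.47 (adjusted p = 0.00105). Neither overlapped between obese and lean FBC, and both calls held in all 23 other settings. Probe set 1417023_a_at changed by 1.32 ± 0.41 (adjusted p = 0.048), and its call was lost in 16 of 23 settings, with adjusted p up to 0.128, among them without the 3 arrays of high actin ratio (adjusted p = 0.0682) and without any 1 array of Obese-FBC. In Obese-FBC over Obese-FB, 1417023_a_at was called without the 3 arrays of high actin ratio (1.37 ± 0.34, adjusted p = 0.0237, against 0.0679 with them). In FB, 1425809_at read 9.35, 7.03, 7.90 and 8.15 in obese mice and 6.40, 6.47, 6.59 and 4.74 in lean mice, a change of 2.06 ± 0.50 (adjusted p = 0.0276). Without the 3 arrays of high actin ratio, one of which gave the lean value of 4.74, the change was 1.61 ± 0.51 (adjusted p = 0.0486), and the call was lost in 5 of 23 settings, with adjusted p up to 0.0812. These included leaving out Obese-FB array 1 or 3 or Lean-FB array 1 or 2. In Obese-FBC over Obese-FB, 1424155_at was higher by 1.75 ± 0.47 (adjusted p = 0.035), a call lost in 8 of 23 settings, among them without Obese-FBC array 1, 2, 3 or 4 or Obese-FB array 2 or 3 (adjusted p up to 0.0971). The adipocyte marker Lep, the gene mutated in the obese mice, was called higher with obesity in FBC (1.12 ± 0.36, adjusted p = 0.049), where Car3 was called lower, and the adipocyte sums are given above. Endothelial cells also make Fabp4 and Cd36, and the summed intensity of 10 endothelial markers was 348 to 901 in Obese-FBC and 263 to 818 in Lean-FBC, and 272 to 379 in Obese-FB and 374 to 712 in Lean-FB. The part of adipocyte and endothelial RNA in the Fabp4 and Cd36 changes was not tested.

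Fabp5, the carrier related to Fabp4, was higher with obesity in FB and higher in FBC than in FB in both genotypes. Probe set 1416021_a_at read 13.04, 12.85, 13.21 and 12.49 in Obese-FB and 12.23, 12.18, 12.15 and 12.09 in Lean-FB. It read 13.74, 13.32, 13.65 and 13.87 in Obese-FBC and 12.94, 13.17, 13.34 and 13.32 in Lean-FBC. The groups stood apart in FB and overlapped in FBC. The gene test gave 0.74 ± 0.18 with obesity in FB (adjusted p = 0.0213) and 0.45 ± 0.18 in FBC (adjusted p = 0.1). Lean-FBC over Lean-FB gave 1.03 ± 0.18 (adjusted p = 0.0213), and Obese-FBC over Obese-FB gave 0.75 ± 0.18 (adjusted p = 0.0156). Median centring took the obese difference to 0.33 ± 0.22 (adjusted p = 0.354). The FBC obesity change of this probe set, tested singly, was 0 ± 0.23 with median centring (adjusted p = 0.996). With no normalization between arrays it was 0.04 ± 0.23 (adjusted p = 0.933). The FB call of Fabp5 was lost without Obese-FB array 1 or 3 or Lean-FB array 2 or 3 (adjusted p up to 0.0813), and the obese call without Obese-FBC array 4 or Obese-FB array 4. The lean call was lost without the 3 arrays of high actin ratio (0.96 ± 0.18, adjusted p = 0.053), and without Lean-FBC array 2, 3 or 4 or Lean-FB array 2 or 3 (adjusted p up to 0.0816). Deviations of same-numbered Lean-FBC and Lean-FB arrays from their group means correlated at 0.135 to 0.595, though Lean-FB array 1 was closest to Lean-FBC array 3. With that number as a block the lean difference of Fabp5 kept its call (adjusted p = 0.0483), while 51 genes were called in place of 23.

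The second Fabp5 probe set, 1416022_at, was called in all 4 of these comparisons. It read 8.67, 8.52, 9.10 and 7.96 in Obese-FB and 7.40, 7.02, 7.56 and 7.48 in Lean-FB. It read 10.74, 10.09, 10.06 and 11.05 in Obese-FBC and 9.14, 9.26, 10.06 and 9.54 in Lean-FBC. The change with obesity was 1.20 ± 0.28 in FB (adjusted p = 0.0232) and 0.98 ± 0.28 in FBC (adjusted p = 0.0318). Every FBC array stood above every FB array of its genotype, by 1.92 ± 0.28 on average in obese mice (adjusted p = 0.000719) and by 2.13 ± 0.28 on average in lean ones (adjusted p = 0.00394). These differences between FBC and FB held in all 23 other settings. The FBC obesity call was lost without Obese-FBC array 1 or 4 or Lean-FBC array 1 or 2 and with the actin ratio as a covariate (adjusted p up to 0.1). The FB obesity call was lost without Obese-FB array 1, 2 or 3 or Lean-FB array 1, 2 or 3 (adjusted p up to 0.0932). Fabp5 and the other carriers of this protein family are similar in sequence, and how far these probe sets separate them was not tested.

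**Figure D3:**
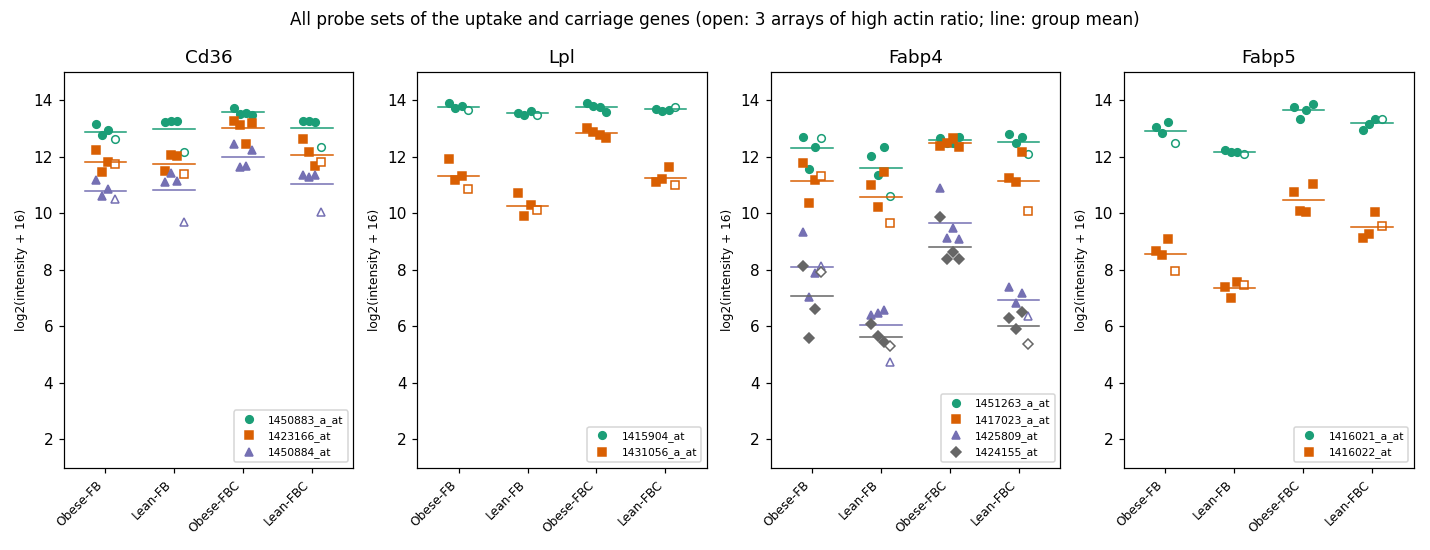
Level, as log2(intensity + 16), of every probe set of Cd36, Lpl, Fabp4 and Fabp5 on the 16 arrays, with groups on the horizontal axis, 1 symbol shape per probe set, a line at each group mean and open symbols for the 3 arrays of high actin ratio. The top probe set of Lpl lies between 13.48 and 13.91 in every group, while 1431056_a_at has means of 12.83 in Obese-FBC and 11.24 in Lean-FBC.

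Plin2, a droplet coat protein of most cells, has 1 probe set here, 1448318_at. It read 13.31, 13.60, 13.61 and 13.20 in Obese-FBC, and 12.67, 12.77, 12.68 and 12.73 in Lean-FBC. It read 13.01, 12.66, 12.94 and 12.75 in Obese-FB, and 12.22, 12.83, 12.86 and 12.55 in Lean-FB. Obese-FBC stood above each of the other groups on every array. The change with obesity was 0.72 ± 0.17 in FBC (adjusted p = 0.0111) and 0.23 ± 0.17 in FB (adjusted p = 0.498). Obese-FBC over Obese-FB gave 0.59 ± 0.17 (adjusted p = 0.0419), while Lean-FBC over Lean-FB gave 0.10 ± 0.17 (adjusted p = 0.938). Both calls of this bright probe set rest on quantile normalization. Median centring gave 0.31 ± 0.19 with obesity in FBC (adjusted p = 0.294) and 0.19 ± 0.19 in Obese-FBC over Obese-FB (adjusted p = 0.547), and the call of Obese-FBC over Obese-FB was kept in 15 of 29 settings. It was lost without the 3 arrays of high actin ratio (0.56 ± 0.19, adjusted p = 0.0685), and without Obese-FBC array 1, 2 or 3, Obese-FB array 2, 3 or 4 or Lean-FBC array 2 or 3. Of 7 macrophage markers, Adgre1 (1.08 ± 0.24) and Fcgr1 (0.96 ± 0.28) were also called higher with obesity in FBC, and 0 lower. Cd68, Mertk, Csf1r, Lyz2 and Itgam were not called, and all but Cd68 overlapped between Obese-FBC and Lean-FBC. After quantile normalization, the summed intensity of the 7 markers was 46504 to 48421 in Obese-FBC and 30709 to 39023 in Lean-FBC. The part of this difference in the FBC changes was not tested.

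Dgat2, an enzyme of the last step of triglyceride synthesis, was highest in Obese-FB. Probe set 1422678_at read 8.15, 8.56, 8.93 and 8.48 in Obese-FB and 7.09, 7.69, 7.58 and 7.76 in Lean-FB, with no overlap. It read 7.74, 7.34, 7.50 and 7.49 in Obese-FBC and 7.12, 7.04, 7.17 and 7.20 in Lean-FBC. It was 2.00-fold higher with obesity in FB, a log2 change of 1 ± 0.19 (adjusted p = 0.00415). It was lower in Obese-FBC than in Obese-FB (-1.01 ± 0.19, adjusted p = 0.0031). Both Dgat2 calls held in all 29 other settings. The settings counted this way for a gene leave out the 2-fold minimum. With that minimum the FB call was lost, as the change lay just under 2-fold before rounding. In FBC the change with obesity was 0.38 ± 0.19 (adjusted p = 0.184), and Lean-FBC over Lean-FB gave -0.40 ± 0.19 (adjusted p = 0.599). The dimmer probe set 1422677_at changed by 0.60 ± 0.26 with obesity in FB (adjusted p = 0.231) and by -0.76 ± 0.26 in Obese-FBC over Obese-FB (adjusted p = 0.0971), where it was called without the 3 arrays of high actin ratio (-0.81 ± 0.23, adjusted p = 0.0414). Neutrophil markers S100a8 and S100a9 were also lower in Obese-FBC than in Obese-FB, and the summed intensity of 5 measured neutrophil markers was 134 to 756 in Obese-FBC, 430 to 2155 in Obese-FB and 1336 to 2633 in Lean-FB. Their part in the Dgat2 difference was not tested.

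Dgat1, the other enzyme of this step, was called lower with obesity by 1 of its 2 probe sets, and the probe set of the gene test was not called. Probe set 1418295_s_at read 9.02, 9.55, 9.49 and 9.80 in Obese-FB and 9.53, 9.98, 9.67 and 12.07 in Lean-FB. It read 8.62, 8.87, 8.93 and 9.09 in Obese-FBC and 9.72, 9.71, 9.49 and 11.27 in Lean-FBC. The highest lean value of Dgat1 in each population was that of array 4, of high actin ratio. The change in FBC, where the groups did not overlap, was -1.17 ± 0.47 (adjusted p = 0.106), and without the 3 arrays of high actin ratio -0.76 ± 0.18 (adjusted p = 0.00998). The change in FB was -0.85 ± 0.47 (adjusted p = 0.329), and without those arrays -0.37 ± 0.20 (adjusted p = 0.225). Array 4 of each lean group also differed in cell type markers. Eosinophil marker Siglecf read 11.98 on Lean-FB array 4, against 7.98 to 8.53 on the others of its group. Ccr3 and Il5ra were also highest there, while Epx and Prg2 were not. Siglecf read 9.65 on Lean-FBC array 4, against 7.84 to 8.65. Fibroblast marker Dcn read 10.56 and 9.51 on these arrays, against 12.41 to 13.44 on the other lean arrays. The parts of RNA quality and of other cells were not tested.

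The second Dgat1 probe set, 1445229_at, was the one called, in both populations. It read 7.06, 7.07, 7.12 and 8.25 in Obese-FB and 8.65, 8.71, 8.65 and 10.40 in Lean-FB. It read 6.58, 6.74, 7.30 and 6.95 in Obese-FBC and 8.72, 8.03, 7.92 and 8.89 in Lean-FBC. The groups stood apart in FB and in FBC. Its change was -1.73 ± 0.38 in FB (adjusted p = 0.0163) and -1.50 ± 0.38 in FBC (adjusted p = 0.0175). Without the 3 arrays of high actin ratio these were -1.59 ± 0.23 (adjusted p = 0.000409) and -1.33 ± 0.21 (adjusted p = 0.000853). The FB call was lost without Obese-FB array 2 or 3 (adjusted p up to 0.0537), and the FBC call without Obese-FBC array 2 (adjusted p = 0.0509). Adipocyte marker Car3 was lower with obesity too (-4.33 ± 0.50 in FB and -3.63 ± 0.50 in FBC), while the dim adipocyte marker Lep was called higher in FBC, as given above. The part of adipocyte RNA in the Dgat1 change was not tested.

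**Figure D4:**
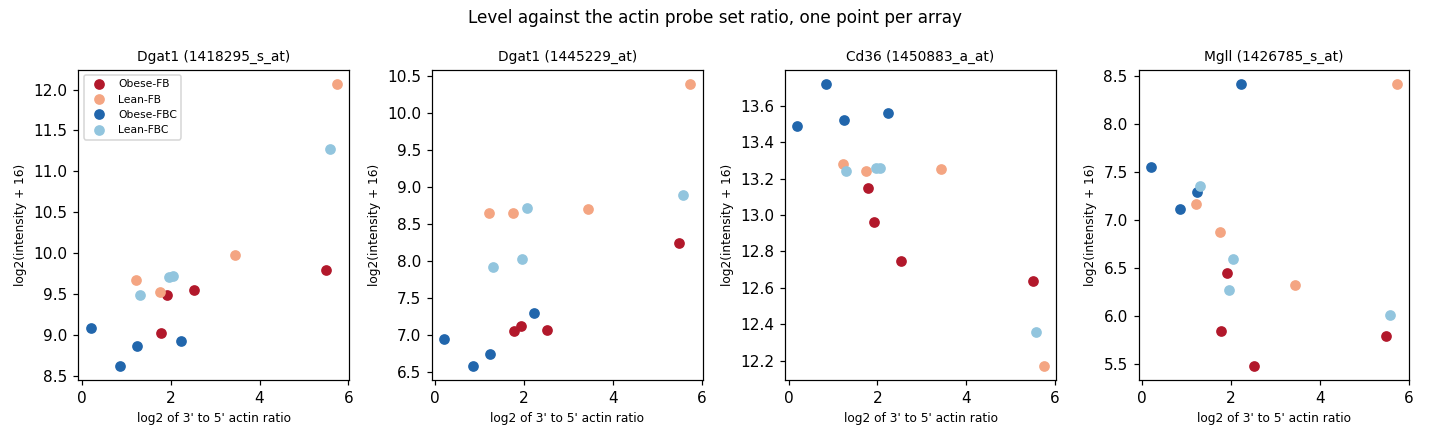
Level, as log2(intensity + 16), against the log2 of the 3′ to 5′ actin ratio, 1 point per array coloured by group, for 2 probe sets of Dgat1 and 1 each of Cd36 and Mgll. The 3 arrays at the right, with actin ratios of 45.0 to 53.3, hold the highest Dgat1 values (12.07 and 11.27) and the lowest Cd36 values (12.17 and 12.36) of the lean groups.

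Pnpla2, which starts the breakdown of stored triglyceride, was higher in Obese-FBC. Probe set 1428143_a_at read 8.74, 9.86, 10.39 and 9.16 in Obese-FBC and 7.97, 8.47, 8.50 and 8.77 in Lean-FBC. It read 8.20, 8.87, 8.85 and 8.19 in Obese-FB and 8.08, 8.06, 8.39 and 8.29 in Lean-FB. Obese-FBC array 1 overlapped both Lean-FBC and Obese-FB, and the other Obese-FBC arrays stood above them. The change with obesity was 1.11 ± 0.30 in FBC, 2.16-fold (adjusted p = 0.0208), and 0.32 ± 0.30 in FB (adjusted p = 0.591). The FBC call of Pnpla2 was lost without Obese-FBC array 2, Obese-FBC array 3 or Lean-FBC array 1, with adjusted p up to 0.068 over all settings. Obese-FBC over Obese-FB gave 1.01 ± 0.30 (adjusted p = 0.0453), a call kept in 11 of 29 settings, with adjusted p up to 0.133. It was lost without the 3 arrays of high actin ratio (0.90 ± 0.32, adjusted p = 0.088). It was also lost without Obese-FBC array 2 or 3, any 1 of the Obese-FB arrays, Lean-FBC array 2 or 3 or Lean-FB array 1, 2 or 3. The second probe set, 1428591_at, lay near the array median, at 5.45 to 6.34 on all arrays, and changed by -0.11 ± 0.22 in FBC (adjusted p = 0.796). The centred log2 values of 10 preadipocyte and fibroblast markers were averaged on each array. Their mean was -1.13, 0.57, 0.77 and -0.61 in Obese-FBC and 0.60, 0.71, 0.79 and -1.32 in Lean-FBC. The part of such cells in the Pnpla2 and Mgll changes was not tested.

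Lipe, which cuts diacylglycerol, was close to the filter on dim signal. Probe set 1422820_at read between 5.65 and 6.51 on the 16 arrays, around the array median of 5.87, and its groups overlapped in every comparison. The change was 0.26 ± 0.19 with obesity in FBC (adjusted p = 0.383, 95% interval -0.14 to 0.66) and 0.09 ± 0.19 in FB (adjusted p = 0.843, 95% interval -0.31 to 0.48). At this signal smaller differences were not detectable.

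Mgll, which cuts the last fatty acid from glycerol, was higher in Obese-FBC than in Obese-FB. Probe set 1426785_s_at read 7.12, 7.29, 8.42 and 7.55 in Obese-FBC and 5.85, 5.48, 6.45 and 5.79 in Obese-FB, a difference of 1.70 ± 0.40, or 3.25-fold (adjusted p = 0.0155). The groups did not overlap, and the call was lost in 4 of 29 settings, which were without Obese-FB array 2, without Obese-FBC array 3, with a gene's probe sets averaged (0.80, adjusted p = 0.0628) and with a pseudocount of 1. With that pseudocount another probe set, 1450391_a_at, had the highest mean and stood for the gene (0.66, adjusted p = 0.373), while 1426785_s_at tested singly gave 2.02 (adjusted p = 0.022). Lean-FBC arrays read 6.60, 6.27, 7.36 and 6.01 and Lean-FB arrays 6.88, 6.33, 7.17 and 8.42, which overlapped. The change with obesity was 1.03 ± 0.40 in FBC (adjusted p = 0.0974) and -1.31 ± 0.40 in FB (adjusted p = 0.0662). The FB change was called with no quantile normalization (-1.40, adjusted p = 0.0499) and with array weights (-0.98, adjusted p = 0.0213). It was also called with array number as a block and without Lean-FB array 2. The FBC change was called with array weights, with array number as a block and without Lean-FB array 4. The other tested Mgll probe sets were not called on all arrays. In Obese-FBC over Obese-FB, 1450391_a_at differed by 0.59 ± 0.37 (adjusted p = 0.366) and 1453836_a_at by 0.79 ± 0.33 (adjusted p = 0.17). With obesity in FB, 1450391_a_at changed by -0.24 ± 0.37 (adjusted p = 0.782) and 1453836_a_at by -1 ± 0.33 (adjusted p = 0.105). Mgll 1453836_a_at read 5.40, 5.16, 5.48 and 6.16 in Obese-FB and 6.72, 6.22, 7.18 and 6.06 in Lean-FB, where obese array 4 overlapped lean array 4, both of high actin ratio. Without the 3 arrays of high actin ratio it was called lower with obesity in FB (-1.36 ± 0.30, adjusted p = 0.00672) and higher in Obese-FBC than in Obese-FB (0.99 ± 0.28, adjusted p = 0.0382). The FB change was also called with array weights (-1.40, adjusted p = 0.000667) and without Lean-FB array 4 (-1.16, adjusted p = 0.0472).

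Whether the obesity change differed between FBC and FB was tested as an interaction in limma. None of the 10 genes was called, where 0.16% of all genes tested were, and 2 of the 10 and 1576 of all genes had an unadjusted p under 0.05. No other tool was run. The largest difference was that of Mgll (2.34 ± 0.57, adjusted p = 0.0866), and leaving out the 3 arrays of high actin ratio gave 1.72 ± 0.51 (adjusted p = 0.0969). With genotype and array number as a block it was called (adjusted p = 0.0431), where 230 of all genes were called in place of 19. In obese mice, though, the numbers were not taken to pair the arrays. Lean-FB array 1 was also not closest to its own number. Array weights, with which 1536 of all genes were called, called Mgll, Cd36 and Dgat2. Mgll was also called with a random block and without Lean-FB array 4, where 158 and 349 of all genes were called. By size, Pnpla2 came next at 0.79 ± 0.42 (adjusted p = 0.429), then Fabp4 at -0.67 ± 0.45 (adjusted p = 0.534), Cd36 at 0.65 ± 0.36 (adjusted p = 0.442), Dgat2 at -0.62 ± 0.26 (adjusted p = 0.328) and Plin2 at 0.49 ± 0.24 (adjusted p = 0.394). Among the probe sets tested singly, 0 of 22 were called, where 0.0427% of all were. An unadjusted p under 0.05 was found for 4 of the 22, and for 2539 of all 21070 probe sets tested. In the main fit the obesity changes of these genes are therefore not shown to differ between FBC and FB.

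Of 15 tested genes of fatty acid uptake outside the 10 (26 listed), 0 were higher and 2 lower with obesity in FB, where 1.81% of all genes tested were higher and 4.07% lower. In FBC 1 was higher and 1 lower, against 8.12% and 5.95% of all genes. Slc27a1, a fatty acid transport protein, was higher with obesity in FBC (2.00 ± 0.22, adjusted p = 1.96e-05) and in Obese-FBC over Obese-FB (1.43 ± 0.22, adjusted p = 0.000971). Slc27a3, of the same family, was lower with obesity in FBC (-2.63 ± 0.25, adjusted p = 5.44e-06) and in FB (-1.41 ± 0.25, adjusted p = 0.00281), and higher in Lean-FBC than in Lean-FB (1.63 ± 0.25, adjusted p = 0.0129). Vldlr, a lipoprotein receptor, was lower with obesity in FB (-2.41 ± 0.64), and Ffar4, a receptor for long-chain fatty acids, was higher in Obese-FBC than in Obese-FB (1.50 ± 0.31). Of 19 tested genes of triglyceride synthesis and the droplet (28 listed), 1 was higher and 0 lower with obesity in FBC. The shares of all genes there were the same 8.12% and 5.95%. In FB 0 were called by limma. An unadjusted p under 0.05 was found there for 4 of the 19, and for 2403 of all 11908 genes tested. The called gene was Agpat3, an acyltransferase, at 1.31 ± 0.19 (adjusted p = 0.000292). Gpat3, of the first step of glycerolipid synthesis, was lower in Obese-FBC than in Obese-FB (-1.84 ± 0.38, adjusted p = 0.00644).

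Other genes of lipolysis moved both ways, with 4 higher and 4 lower of 15 tested (23 listed) with obesity in FBC, where 8.12% of all genes were higher and 5.95% lower. In FB 2 were higher and 3 lower, where 1.81% of all genes were higher and 4.07% lower. Lipa, the acid lipase that cuts cholesteryl esters and triglyceride in lysosomes, was higher by 1.17 ± 0.15 in FBC (adjusted p = 0.000118) and 0.65 ± 0.15 in FB (adjusted p = 0.019). Nceh1, a cholesteryl ester hydrolase, was higher by 2.05 ± 0.27 in FBC (adjusted p = 0.000118) and 1.38 ± 0.27 in FB (adjusted p = 0.00538). Abhd5, the coactivator of the lipase made by Pnpla2, was higher with obesity in FBC (0.64 ± 0.20, adjusted p = 0.0406), and its inhibitor G0s2 was lower in Obese-FBC than in Obese-FB (-1.28 ± 0.36, adjusted p = 0.0356). Ces1d, a carboxylesterase, was lower with obesity (-1.62 ± 0.28 in FBC and -1.68 ± 0.28 in FB). Aqp9, a glycerol channel, was lower too (-2.32 ± 0.41 in FBC and -1.82 ± 0.41 in FB). Median changes of the list were -0.35 in FBC and -0.29 in FB, where those of all genes were 0.08 and 0.03. Among 11 tested regulators (15 listed), Pparg, a nuclear receptor that drives lipid storage genes, was higher with obesity by 0.68 ± 0.20 in FBC (adjusted p = 0.0346) and 1.14 ± 0.20 in FB (adjusted p = 0.00279). Cebpa was higher by 1.68 ± 0.25 in FBC and 0.92 ± 0.25 in FB, and Nr1h3, the oxysterol receptor, by 0.84 ± 0.18 in FBC (adjusted p = 0.00532). In all, 3 of the 11 regulators were higher and 1 lower in FBC, against 8.12% and 5.95% of all genes, the lower one being Hif1a (-0.74 ± 0.19). In FB 2 of the 11 were higher and 0 lower, against 1.81% and 4.07% of all genes. Median changes of the 11 regulators were -0.22 in FBC and -0.16 in FB, where those of all genes were 0.08 and 0.03.

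For each called gene, the tested genes of most similar level over the 16 arrays were found by Pearson correlation of log2 values, as a description of arrays that share groups and RNA quality. Dgat2 was nearest to Trem3 (r = 0.951), Mmp8 (0.935) and Zfyve9 (0.935). Fabp5 was nearest to Mmp19 (0.938), Cdk1 (0.935) and Ncapd2 (0.928). Plin2 was nearest to Sec23b (0.946), C77080 (0.918) and Wee1 (0.917), and Pnpla2 to Mcat (0.946), Eif3l (0.945) and Eci2 (0.939). Mgll had the least close neighbours, Enpp4 (0.883), Taz (0.845) and Atp6v0b (0.816).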

How the data were processed

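Per the labels, macrophage RNA amplified in 2 rounds was hybridised to Affymetrix Mouse Genome arrays. The authors deposited a linear intensity for each probe set. The submitters' processing notes name Affymetrix Expression Console. The version, the summarization and the build were not given in the sources used here. Each array had a 2% trimmed mean of 250. From them log2(intensity + 16) was computed and, since array medians ran from 5.692 to 6.06, quantile-normalized.

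Of 45101 probe sets, 64 were controls, 34945 had 1 gene symbol, 932 several and 9160 none. Names came from the platform annotation, which can be old. Genes whose signal passed the array median on 4 or more of 16 arrays were fitted by limma 3.58.1 in R 4.3.3, with 4 group means, residual df of 12 and Benjamini-Hochberg adjustment over all genes tested. The fit was tested on simulated data. Replicate arrays were taken as separate samples, and their number limits the precision; a p-value here reflects array-to-array spread, which is spread between mice only if no mouse gave more than 1 array of a group.

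The members, lists and tests were chosen with earlier results of these data known. The text names all 10 members, the called genes of each pathway list (up to 6, some left out for length) and the 3 genes most like each called member. Same-numbered arrays were checked for pairing by the correlation of their deviations from group means. In lean mice these were 0.135, 0.231, 0.299 and 0.595, all above 0.1. Lean-FB array 1 was nonetheless closest to Lean-FBC array 3, and the highest value was that of the array 4 pair, both of high actin ratio. In obese mice they were 0.31, 0.0333, -0.0297 and -0.137, so the numbers were not taken to pair the obese arrays. The labels do not say whether same-numbered arrays share a mouse, and low correlations cannot exclude it. Alternatives were other filters, normalizations, pseudocounts, probe set rules, limma settings, blocks, the actin ratio and leaving out arrays. The settings applied to probe sets singly were chosen after seeing the data. Figures used matplotlib.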

Additional observations from a re-analysis of the deposited data

Results flagged for a closer look

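Single arrays that stood apart from the other 3 of their group were looked for in 96 groups of probe set levels, and 9 were found. Chance gives about 1 in 20 such groups, and arrays of high actin ratio gave 8 of the 9. The lean arrays among these also differed in cell type markers, as given for Dgat1. Cd36 1450883_a_at was at 12.17 on Lean-FB array 4, against 13.24 to 13.28 on the others of its group, and at 12.36 on Lean-FBC array 4, against 13.24 to 13.26. Cd36 1450884_at was at 10.06 on Lean-FBC array 4, against 11.28 to 11.37. Cd36 1423166_at was at 12.45 on Obese-FBC array 3, against 13.13 to 13.27, the 1 case on an array without a high actin ratio. Fabp4 1425809_at was at 4.74 on Lean-FB array 4, against 6.40 to 6.59. Dgat1 1418295_s_at was at 11.27 on Lean-FBC array 4, against 9.49 to 9.72. Dgat1 1445229_at was at 8.25 on Obese-FB array 4, against 7.06 to 7.12, and at 10.40 on Lean-FB array 4, against 8.65 to 8.71. Mgll 1453836_a_at was at 5.41 on Lean-FBC array 4, against 6.47 to 6.63.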

How the results depend on the processing

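The count of the 10 genes called was 2 for obesity in FB and in FBC, 1 and 5 for FBC over FB in lean and obese mice, and 0 for the interaction, and it changed as follows. For obesity in FB it was 5 with all probe sets singly, 3 with a gene's probe sets averaged, no quantile normalization or array weights, 1 with only the groups compared and 0 with a 2-fold minimum. For obesity in FBC it was 7 with all probe sets singly, 6 with a gene's probe sets averaged or array weights, 3 with a trended and robust fit or without the 3 arrays of high actin ratio, and 1 with no quantile normalization, median centring, only the groups compared or a 2-fold minimum. In lean mice it was 0 with no quantile normalization, with only the groups compared or on leaving out those 3 arrays, and 2 with array weights. In obese mice it was 6 with all probe sets singly or a random block, 4 without those 3 arrays, and 3 with no filter, no quantile normalization, median centring, a pseudocount of 1, only the groups compared, the actin ratio as a covariate or a 2-fold minimum. For the interaction it was 3 with array weights. With the replicate block the count was 4 for obesity in FBC, 3 in FB, 1 in lean mice, 6 in obese mice and 1 for the interaction, which was also 1 with a random block. Of all genes the replicate block called 2054, 1034, 51, 1655 and 230 in that order, in place of 1675, 701, 23, 999 and 19. The random block called 1746 in obese mice and 158 for the interaction. Leaving out 1 array gave 1 to 2 in FB, 1 to 4 in FBC, 0 to 1 in lean mice, 2 to 6 in obese mice and 0 to 1 for the interaction. The highest of these in FBC, in obese mice and for the interaction came without Lean-FB array 4. There 2011, 1328 and 349 of all genes were called. The causes were not tested.

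Values that turned sign were those of uncalled genes. With no quantile normalization, the obesity change was 0.00 for Cd36 and -0.02 for Lipe in FB, and -0.34 for Lpl and -0.18 for Fabp4 in FBC, and Obese-FBC over Obese-FB was -0.01 for Fabp4. With median centring, these were 0.09 for Cd36, -0.38 for Lpl, -0.21 for Fabp4 and -0.01 for Fabp4 in obese mice, and the interaction of Plin2 was -0.07. Leaving out the arrays of high actin ratio, Fabp4 was -0.07 in FBC, and in lean mice Cd36 was 0.00 and Lipe 0.05. With the actin ratio as a covariate, Fabp4 was -0.20 in FBC and -0.03 in obese mice, Cd36 -0.01 in lean mice, and Dgat1 0.07 in obese mice and 0.22 in the interaction. With array weights, Lipe was 0.11 in lean mice and -0.10 in the interaction. With a gene's probe sets averaged, Lpl in obese mice was 0.75 and called (adjusted p = 0.00628), and the interaction was 0.18 for Lpl and 0.53 for Fabp4. Leaving out 1 array gave -0.01 to 0.18 for Lipe in FB and -0.07 to 0.17 for Fabp4 in FBC. In lean mice it gave -0.22 to 0.27 for Cd36, -0.03 to 0.18 for Plin2, -0.67 to 0.32 for Dgat1 and -0.12 to 0.11 for Lipe. It gave -0.05 to 0.05 for Lpl in obese mice and -0.91 to 0.09 for Dgat1 in the interaction.

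Over all genes, counts moved most with array weights, with which 3987 genes were called in FB in place of 701, 4115 in FBC in place of 1675, 1324 in lean mice in place of 23, 2202 in obese mice in place of 999 and 1536 for the interaction in place of 19. Without the 3 arrays of high actin ratio they were 2022, 2507, 15, 1377 and 298. With median centring 907 of 1225 called genes were higher in obese mice and 39 of 42 in lean mice, in place of 609 and 18. Of 24 called results of single probe sets, 8 kept their call in all 23 settings. Dim probe sets limit what can be seen for Lipe and Mgll.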
